A study of Medicago truncatula with 160 samples.

Results

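A set of 4 genes with known roles in the entry of rhizobia into root nodules of Medicago truncatula was followed across both hosts and all strains of the series: the receptor kinase gene MtLYK3 (MtrunA17_Chr5g0439631), the vapyrin gene MtVPY (MtrunA17_Chr6g0461061), the syntaxin gene MtSYP132 (MtrunA17_Chr2g0322801) and the Nck-associated protein gene MtNAP1 (MtrunA17_Chr4g0043751, also named MtRIT). They were taken by name from the gene list that the study drew up for symbiosis and are 4 of 49928 M. truncatula rows among 56121 rows of both organisms. All 4 passed the filter on low counts, as did 37672 M. truncatula genes over all libraries. Nodule RNA was sequenced from DZA and from A17, which are inbred M. truncatula genotypes, each inoculated singly with 1 of 20 natural strains of Sinorhizobium meliloti (the labels also write Ensifer meliloti). Each of the 40 combinations of host and strain had 4 plants, grown in a greenhouse in an autoclaved mix of turface, sand and field soil, which gave 80 libraries on DZA and 80 on A17. Nodules of DZA were harvested 6 weeks after planting. The labels name no mutation or transgene in either host, and no uninoculated plant was analysed here.

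As background, rhizobia enter the root through infection threads, tubes of inward growing plant membrane and wall that carry the bacteria from the root hair into the nodule, where they are released into host cells inside a plant membrane as symbiosomes. LYK3 is a LysM receptor kinase that takes part in Nod factor perception at the entry step. VPY is a protein with an ankyrin repeat domain that infection threads need to progress. SYP132 is a plasma membrane syntaxin, a protein of vesicle fusion, that is also found on the symbiosome membrane. Its transcript isoforms share 1 row here and were not separated. NAP1 belongs to the complex that activates branching of actin filaments, and M. truncatula plants without it form defective infection threads. The study's gene list gives the VPY row a double name, Flotillin 7 and VAPYRIN, so the identity of that row rests on the list. RefSeq places the gene with the symbol Vpy on chromosome 6 from 10270253 to 10272489 of assembly MtrunA17r5.0-ANR, matched here by symbol only. The other 3 genes were not matched there, and since gene lengths were not used, levels were compared within a gene and not between genes.

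Levels are given as CPM, the count of a gene scaled to a fixed M. truncatula total per library, after scaling by TMM, a method that removes differences in library composition. M. truncatula counts per library were 6526597 to 58578353 on DZA (median 31559988) and 2282942 to 58439685 on A17 (median 35261896). The rest of the assigned counts went to S. meliloti genes, which took 3.68 to 87.5% of the counts on DZA (median 31.2%) and 5.35 to 96.3% on A17 (median 26.9%). The 10 most abundant M. truncatula rows took 21.0 to 86.1% of the M. truncatula counts on DZA and 23.9 to 86.7% on A17. The study reports reads that did not map and ribosomal RNA in varying amounts, and their part in the share was not tested. The median count per library was 14.2 for LYK3, 1547 for VPY, 740 for SYP132 and 99.8 for NAP1 on DZA, against 14.2, 2768, 891 and 101 on A17. A total of 5 libraries had S. meliloti genes nearer to another strain than to their label, 2 on DZA (strain 182 plant 3406 and strain 176A plant 3292) and 3 on A17 (strain 89 plant 3514, strain 25B plant 3300 and strain 724B plant 3246). The A17 library of strain 216 plant 3110 stood apart with the fewest M. truncatula counts, 2282942 of 61611265 in total, and the highest S. meliloti share. Leghemoglobin genes were not analysed here, but the 5 nodule markers NCR169, VTL8, SymCRK, NAD1 and DNF2, all known from nodule cells that hold rhizobia, were found on both hosts (NAD1 was at 0 in 1 DZA library), with a summed level of 46.5 to 792 CPM on DZA (median 335) and 9.65 to 710 CPM on A17 (median 403).

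The first comparison was between the hosts. VPY was lower on DZA, and was the only 1 of the 4 genes that passed the test. VPY measured 12.7 to 104 CPM in the 80 DZA libraries with a median of 47.6, and 8.43 to 142 CPM in the 80 A17 libraries with a median of 65.4. The ranges overlapped widely, and it was the centre of the distribution that lay lower on DZA, with means of 48.1 ± 18.4 CPM on DZA and 66.5 ± 22.3 CPM on A17 (SD, n = 80 each). The log2 difference, DZA over A17 with strain in the model, was -0.48 (SE 0.09, 95% interval -0.66 to -0.30), which is 0.716-fold, with an adjusted p of 1.8e-06 in edgeR's quasi-likelihood test with Benjamini-Hochberg adjustment over all genes. In nodule RNA, fewer infected cells and less transcript per cell cannot be told apart. Reads of both hosts were also counted against the A17 reference alone. Any loss of DZA reads where the sequence of DZA differs from it was not tested, and would lower the DZA counts. Of all genes tested, 53.2% passed the threshold of 0.05 in this comparison and 26.1% were lower on DZA, so that 1 call among 4 genes was no more frequent than among genes in general.

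The lower level of VPY on DZA held strain by strain. The mean log2 CPM of the 4 plants was lower on DZA for 19 of 20 strains, and an exact two-sided sign-flip test over the 20 strain differences gave p = 7.8e-05 for a mean difference of -0.48 (SE 0.09). With strain 89 all 4 DZA plants (18.9, 21.4, 35.4 and 44.3 CPM) lay below all 4 A17 plants (44.8, 49.0, 78.3 and 86.9 CPM), and the difference of the means in log2 CPM, -1.14, was the largest of the 20. Strain 89 was the only strain of 20 without overlap in this direction, against 7.77% of all pairs of a gene and a strain, and 1 of its A17 libraries, at 78.3 CPM, was among those nearer another strain. Its S. meliloti shares were 79.5, 54.8, 56.0 and 13.6% in the DZA plants in the order of VPY given, against 41.6, 24.4, 5.35 and 16.0% in the A17 plants. Strain 182 was told apart from strain 89 by only 1 of the 650 S. meliloti genes used to check strains. It gave VPY at 51.5 ± 7.0 CPM on DZA and 63.2 ± 23.7 CPM on A17 (SD, n = 4 plants each), and 1 of its DZA libraries was among those nearer another strain. The S. meliloti shares of strain 182 were 3.68, 35.0, 14.5 and 22.2% on DZA and 44.5, 43.6, 40.8 and 9.42% on A17. The only strain with the opposite sign was strain 216, at 104, 54.7, 52.1 and 51.4 CPM on DZA, against 83.0, 75.3, 59.1 and 8.43 CPM on A17. Its lowest A17 value came from plant 3110, the library with 96.3% S. meliloti counts and 32.0 counts of VPY. Without the libraries in which S. meliloti took over 60% of the counts, a limit chosen after the data were seen, the log2 difference of VPY between DZA and A17 was -0.48 (adjusted p = 3.3e-08 in edgeR).

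The ratio of VPY to SYP132 counts within a library, which no scaling between libraries can change, ran the same way. It was 1.01 to 4.69 in the DZA libraries (median 2.20) and 1.64 to 5.87 in the A17 libraries (median 3.17). On the log2 scale the mean ratio was lower on DZA for 19 of 20 strains, by 0.49 on average (SE 0.06, exact two-sided sign-flip p = 3.8e-06). Strain 230 was the exception, with a difference of 0.07. SYP132 itself gave 7.96 to 29.1 CPM on DZA (median 21.8) and 1.70 to 27.1 CPM on A17 (median 21.9), almost the same centre on both hosts. Its log2 difference between DZA and A17 was 0.0011 (SE 0.06, edgeR adjusted p = 0.99), and the 95% interval of -0.12 to 0.12 bounds the size of any host difference. By strain, its mean was higher on DZA for 7 and lower for 13 of 20 strains.

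**Figure D1:**
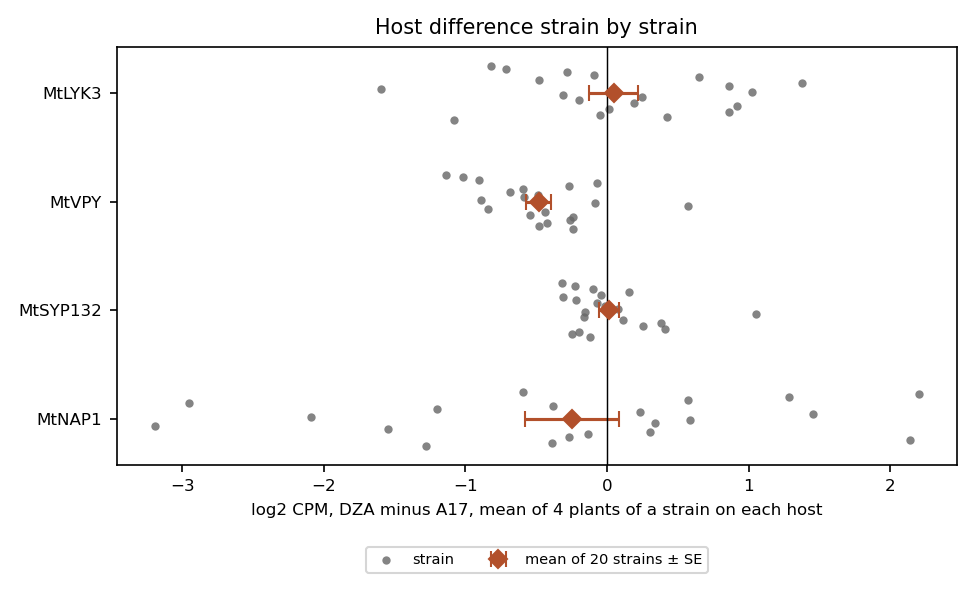
Difference in mean log2 CPM between DZA and A17 plants (DZA minus A17, x axis) for each gene (rows); grey points are the 20 strains, and the diamond with its bar is their mean ± SE. VPY lay below 0 for 19 of 20 strains, at a mean of -0.48, while the points of LYK3 and NAP1 spread from -1.60 to 1.38 and from -3.19 to 2.20.

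LYK3 and NAP1 showed no host difference that stood out from the spread between plants. LYK3, the receptor, was near the limit of detection: it gave 0 to 1.38 CPM on DZA (median 0.445) and 0 to 1.198 CPM on A17 (median 0.423). Under 10 counts were found in 32 of 80 libraries on DZA and in 25 of 80 on A17, and 0 counts in 8 and in 5 of them. A count of 0 allows up to 3 counts, which is 0.106 to 0.841 CPM in those DZA libraries and 0.1002 to 0.791 CPM in those A17 libraries, so that the median level of 0.445 CPM on DZA and 0.423 CPM on A17 could be told from 0 only in the deeper of them. The log2 difference of LYK3 between DZA and A17 was 0.15 (SE 0.19, 95% interval -0.23 to 0.52, edgeR adjusted p = 0.53), and its mean was higher on DZA for 10 of 20 strains. With strain 199 all 4 DZA plants (0.509, 0.628, 0.672 and 0.756 CPM) lay above all 4 A17 plants (0.215, 0.310, 0.340 and 0.417 CPM). This was 1 of 20 strains for LYK3, against 5.11% of all pairs of a gene and a strain. These values rest on 12.6 to 47.4 counts a plant on DZA and 1.88 to 31.0 on A17.

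NAP1, the actin regulator, gave 0 to 8.16 CPM on DZA (median 3.01) and 0 to 8.45 CPM on A17 (median 2.77). The fitted log2 difference between DZA and A17 was 0.01 (SE 0.27, 95% interval -0.52 to 0.54, edgeR adjusted p = 0.97), whereas the mean difference in log2 CPM over strains was -0.25 (SE 0.33, exact sign-flip p = 0.47), so that not even the sign was settled. By strain the difference ran from -3.19 with strain 206 to 2.20 with strain 748B. With strain 144B the DZA plants (3.64, 4.68, 4.86 and 5.64 CPM) all lay above the A17 plants (0, 2.57, 2.86 and 3.26 CPM). This was 1 of 20 strains for NAP1, against 5.11% of all pairs of a gene and a strain.

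NAP1 was unlike the other genes in how its counts fell among plants. It was at exactly 0 in 17 of 80 libraries on DZA and 12 of 80 on A17, while the lowest counts above 0 were 7.79 on DZA and 29.7 on A17. Only 2 DZA libraries and 0 A17 libraries lay between 0 and 10 counts, and all other plants were either at 0 or at 10 or more counts. At the median level of the other libraries of their host (3.63 CPM on DZA and 3.06 CPM on A17) the libraries at 0 would have held 17.3 to 209 counts on DZA (median 57.2) and 11.6 to 113 counts on A17 (median 35.9). The limit that a count of 0 allows in them was 0.0521 to 0.628 CPM on DZA and 0.0810 to 0.791 CPM on A17, below that level in all. In the same libraries SYP132 had 48.2 to 980 counts on DZA (median 272) and 6.46 to 842 counts on A17 (median 195). Since the deposited counts are estimates that a program assigns to transcripts, a 0 says only that NAP1 was listed at 0.

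The zeros were spread over strains and were more frequent in libraries with much S. meliloti RNA. On DZA they fell in 13 of 20 strains, 2 plants each for strains 25B, 89, 206 and 335 and 1 for the others, and on A17 in 12 of 20 strains with 1 plant each. On DZA, 2 of 22 libraries with up to 20% S. meliloti counts were at 0, 4 of 27 with 20 to 40%, 4 of 18 with 40 to 60% and 7 of 13 above 60%. On A17 the numbers were 0 of 30, 1 of 23, 6 of 19 and 5 of 8. Yet the libraries above 60% also held high values, up to 8.16 CPM in DZA strain 748B plant 3314, from 22.9 counts. Over both hosts NAP1 was at 0 in 29 of 160 libraries, more than for 95.6% of the 1000 genes nearest to it in mean CPM, whose median was 1 library. The part of depth, of S. meliloti share and of count estimation in these zeros was not tested.

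**Figure D2:**
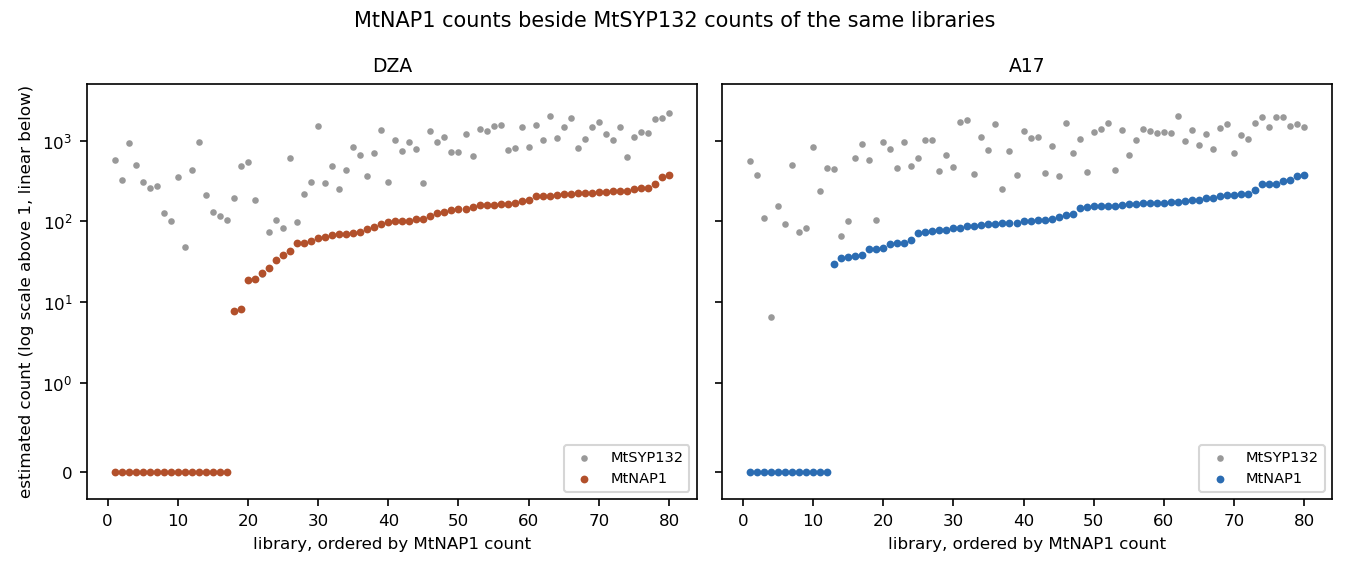
Estimated counts of MtNAP1 (coloured) in each library of DZA (left) and A17 (right), ordered from the lowest to the highest, with the count of MtSYP132 in the same library (grey); the y axis is logarithmic above 1 and linear below. MtNAP1 steps from 0, in 17 DZA and 12 A17 libraries, to 7.79 counts on DZA and 29.7 counts on A17, while MtSYP132 was counted in every library.

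The second comparison asked whether the level of the genes depended on the S. meliloti strain. None of the 4 genes passed the test of strain on either host. On DZA the F statistics over 20 strains were 0.49 for LYK3, 0.95 for VPY, 0.78 for SYP132 and 0.36 for NAP1, with unadjusted p of 0.96, 0.53, 0.73 and 0.99 and adjusted p of 1.0 in edgeR for all. All 4 also had an adjusted p of 1.0 on A17. The same test called 4.20% of genes on DZA and 1.63% on A17. The test of whether strains acted differently on DZA than on A17 called none of the 4, against 1.05% of genes, and the members' adjusted p were again 1.0.

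The order of strains by mean level is therefore given as description. VPY on DZA was highest with strain 216 at 65.6 ± 25.8 CPM and lowest with strain 89 at 30.0 ± 12.0 CPM (SD, n = 4 plants each), 2.19-fold apart and without overlap between the plants. On A17 it was highest with strain 25B at 80.3 ± 47.2 CPM and lowest with strain 724B at 55.3 ± 17.3 CPM, 1.45-fold apart and overlapping. SYP132, the steadiest of the 4, ran on DZA from 25.9 ± 2.2 CPM with strain 176A to 17.8 ± 4.7 CPM with strain 89, without overlap. On A17 it ran from 22.8 ± 2.0 CPM with strain 141 to 17.5 ± 10.8 CPM with strain 216, whose lowest plant was again plant 3110, at 1.70 CPM from 6.46 counts. LYK3 was highest with strain 144B at 0.769 ± 0.543 CPM and lowest with strain 230 at 0.242 ± 0.157 CPM on DZA, and highest with strain 278 at 0.672 ± 0.315 CPM and lowest with strain 216 at 0.251 ± 0.189 CPM on A17. NAP1 was highest with strain 748B at 5.02 ± 2.27 CPM and lowest with strain 25B at 0.891 ± 1.21 CPM on DZA, and highest with strain 204 at 4.84 ± 0.92 CPM and lowest with strain 89 at 1.28 ± 1.19 CPM on A17.

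For each gene and host, 0 of the 19 neighbouring pairs of strains in these orders were further apart than their pooled SD. Neighbours in a sorted order lie close by construction, and this does not show that the strains act alike. Over all 190 pairs of strains on DZA, the plants did not overlap in 5 pairs for LYK3, 4 for VPY, 12 for SYP132 and 5 for NAP1, and on A17 in 0, 0, 0 and 7. For all genes and pairs the shares without overlap were 3.13% on DZA and 1.93% on A17, so that 12 of 190 pairs for SYP132 on DZA (6.32%) and 7 of 190 for NAP1 on A17 (3.68%) were the highest shares among the members.

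The strain means on DZA were set against those on A17. Pearson's r between the 20 strain means in log2 CPM was -0.07 for LYK3, -0.28 for VPY, -0.51 for SYP132 and -0.01 for NAP1. Without the libraries above 60% S. meliloti counts the values were -0.12 for LYK3, 0.04 for VPY, 0.12 for SYP132 and -0.33 for NAP1, so that those of VPY, SYP132 and NAP1 depended on those libraries. Strain 89, lowest of 20 on DZA for both VPY and SYP132, gave 64.7 ± 21.0 CPM of VPY and 21.5 ± 0.7 CPM of SYP132 on A17. On DZA, strain 182, told apart from strain 89 by 1 gene, gave 51.5 ± 7.0 CPM of VPY and 24.3 ± 1.5 CPM of SYP132. The DZA plants of strain 182 had S. meliloti shares of 3.68, 35.0, 14.5 and 22.2%, against 56.0, 13.6, 54.8 and 79.5% for strain 89. The library at 14.5%, plant 3406, was among those nearer another strain. The part of the share in the gap between these 2 strains was not tested.

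**Figure D3:**
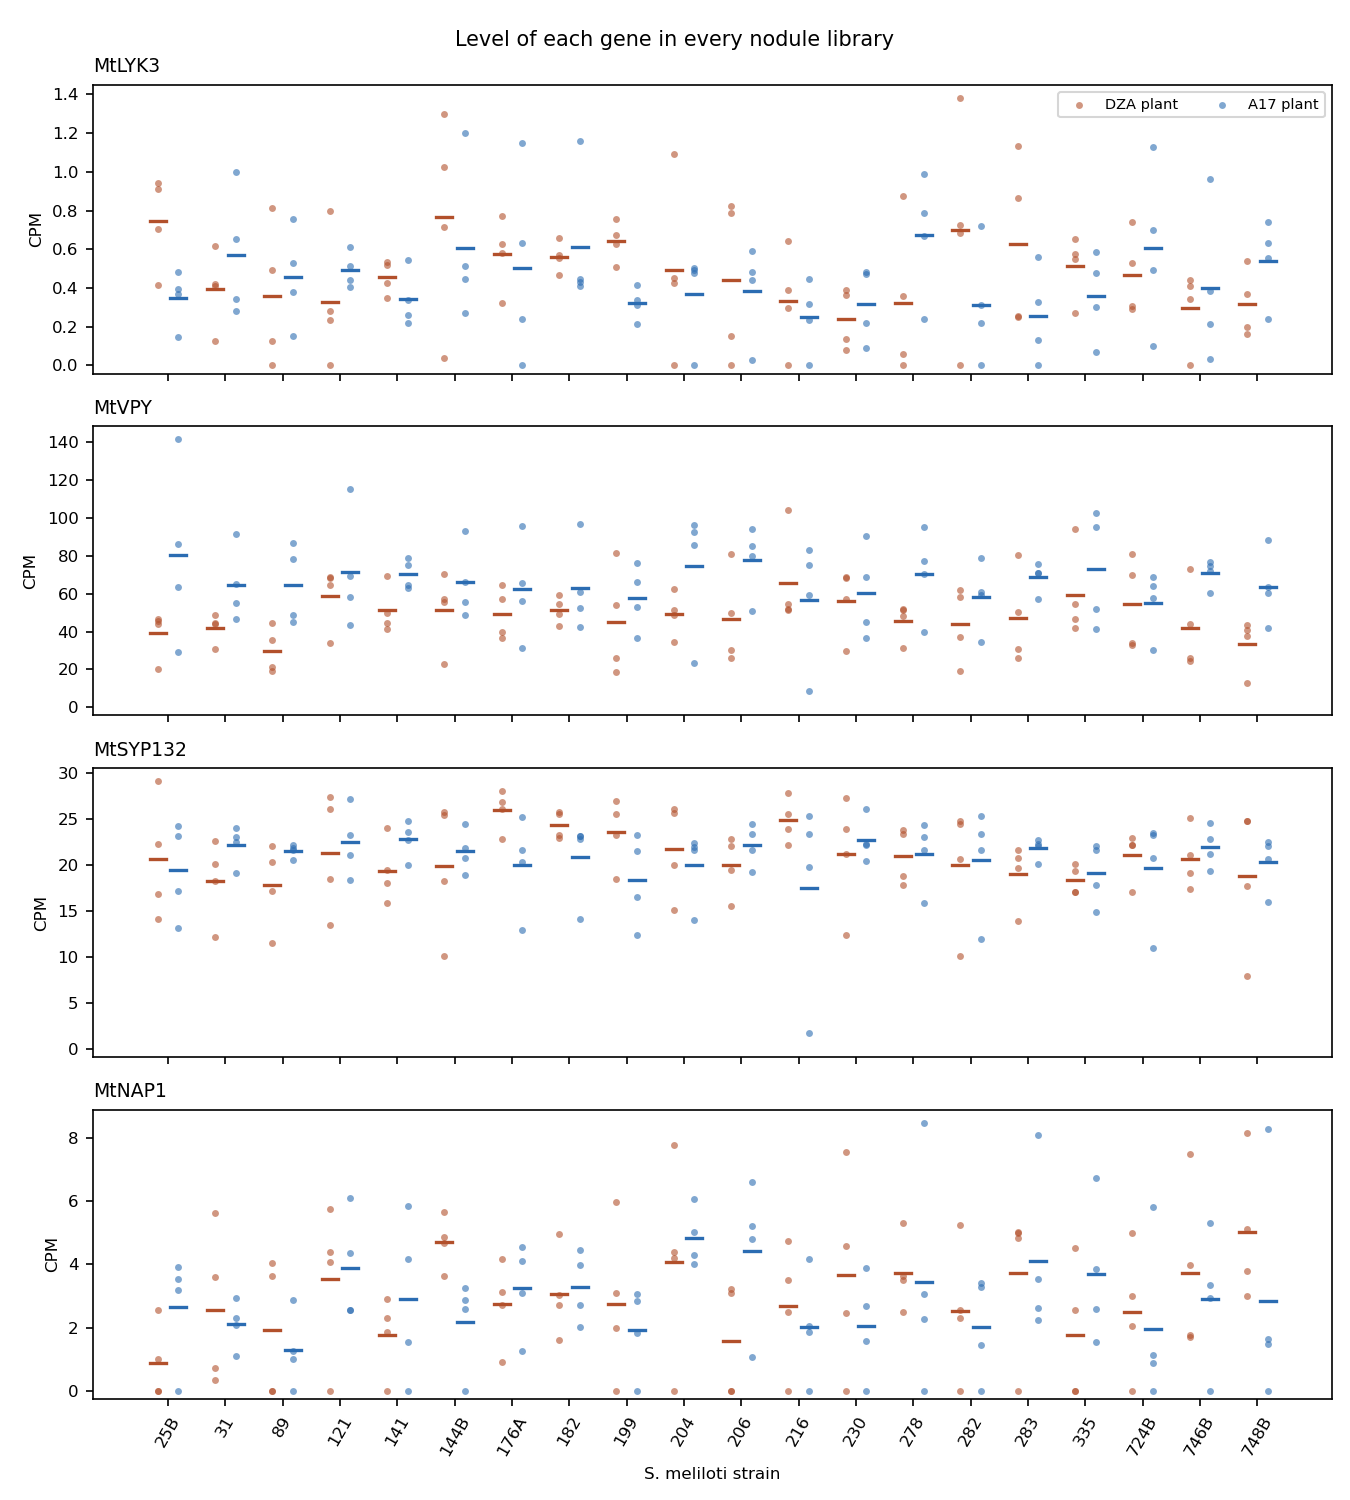
Level of each gene in CPM (y axis, linear) in every library, by S. meliloti strain (x axis); each point is 1 plant, DZA left and A17 right of each strain, and bars are means of 4 plants. VPY was lower on DZA for most strains, and NAP1 plants sat at 0 in 13 strains on DZA and 12 on A17.

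Plants of the same strain differed by different amounts from gene to gene. The SD of log2 CPM within a host and strain was 0.45 for SYP132, 0.62 for VPY, 1.23 for LYK3 and 2.50 for NAP1, against a median of 1.04 over 37672 genes. Low counts widen this spread, so each gene was set beside the 1000 genes nearest in mean log2 CPM. SYP132 had a larger SD than 33.3% of its neighbours, LYK3 than 39.7%, VPY than 58.8% and NAP1 than 99.8%. In CPM, the coefficient of variation over the 80 plants was 66.1% for LYK3 on DZA and 64.7% on A17, where counting error alone would give 28.6% and 28.4%. For VPY it was 38.2% on DZA and 33.6% on A17, where counting error would give 2.90% and 2.20%.

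The third comparison set the 4 genes against the S. meliloti share of the library counts, within strains. The S. meliloti share averaged 35.9% on DZA and 31.4% on A17 and differed between the hosts by less than the test could tell from the spread of strains (difference 4.54 points, SE 3.64, exact two-sided sign-flip p = 0.23). VPY fell as the share rose, on both hosts: its log2 CPM changed by -0.15 per 10 points on DZA (SE 0.03, edgeR adjusted p = 1.1e-05) and by -0.19 on A17 (SE 0.03, adjusted p = 1.2e-08). In libraries with up to 20% S. meliloti counts VPY averaged 54.5 ± 13.4 CPM on DZA (n = 22) and 79.5 ± 21.0 CPM on A17 (n = 30). From 20 to 40% it averaged 55.6 ± 18.6 CPM on DZA (n = 27) and 70.4 ± 14.1 CPM on A17 (n = 23). From 40 to 60% it averaged 42.4 ± 17.3 CPM on DZA (n = 18) and 54.7 ± 16.0 CPM on A17 (n = 19). Above 60% it averaged 29.8 ± 11.1 CPM on DZA (n = 13) and 34.6 ± 14.1 CPM on A17 (n = 8). On DZA the mean of VPY was thus lower only in the bins above 40%.

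SYP132 fell less steeply, by 0.09 per 10 points on DZA (SE 0.02, edgeR adjusted p = 1.9e-05) and by 0.09 on A17 (SE 0.02, adjusted p = 0.00028). Its fall lay mostly in the libraries richest in S. meliloti: it averaged 23.3 ± 2.6, 22.5 ± 3.4, 20.0 ± 4.9 and 14.6 ± 3.7 CPM in the 4 bins from up to 20% to above 60% on DZA. On A17 the same bins held 22.1 ± 1.9, 22.7 ± 1.8, 19.6 ± 3.8 and 13.1 ± 5.8 CPM. LYK3 changed by -0.20 per 10 points on DZA (SE 0.08, edgeR adjusted p = 0.025) and by -0.16 on A17 (SE 0.08, adjusted p = 0.068). NAP1 changed by -0.11 on DZA (SE 0.12, edgeR adjusted p = 0.42) and by -0.01 on A17 (SE 0.11, adjusted p = 0.95), with 95% intervals of -0.34 to 0.12 and of -0.21 to 0.20.

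These slopes should be read against the whole table, since 60% of genes on DZA and 64.7% on A17 passed the threshold, and 28.0% and 30.3% fell with the share. Falling genes were 46.7% of the calls on DZA and 46.9% on A17, but 29.4% and 29.9% with DESeq2's size factors. In all, 3 of the 4 genes fell on DZA and 2 of 4 on A17. The difference between the hosts in the slope, a test added after the data were seen, was called for 7.37% of genes and for none of the 4. For VPY that difference, DZA minus A17, was 0.05 per 10 points (95% interval -0.02 to 0.13, edgeR adjusted p = 0.47), and for LYK3 it was 0.0003 (-0.17 to 0.17), so that the call for LYK3 on DZA and its absence on A17 do not show a difference between the hosts. A pair of choices ended calls. With DESeq2's size factors in the same test the slopes of SYP132 were -0.04 on DZA (adjusted p = 0.058) and -0.03 on A17 (adjusted p = 0.11) and that of LYK3 on DZA was -0.14 (adjusted p = 0.11), while VPY kept its calls at -0.10 and -0.12. Without libraries above 60% S. meliloti, the slopes on DZA were -0.11 for VPY (adjusted p = 0.059), -0.05 for SYP132 (adjusted p = 0.085) and -0.22 for LYK3 (adjusted p = 0.11), and on A17 -0.13 for VPY (adjusted p = 0.0010) and -0.01 for SYP132 (adjusted p = 0.69).

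With the S. meliloti share as a covariate, the lower level of VPY on DZA remained, at a log2 difference of -0.39 between DZA and A17 (edgeR adjusted p = 8.3e-07). Between the hosts, 4 of the 5 nodule markers passed the test, against 53.2% of all genes, with VTL8 (log2 difference 0.53) and DNF2 (0.34) higher and SymCRK (-0.59) and NAD1 (-0.84) lower on DZA. The markers moved with the share as well: 5 of 5 fell on both hosts, NCR169 by 0.47 per 10 points on DZA and by 0.51 on A17, and their part in the slopes of the 4 genes was not tested.

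**Figure D4:**
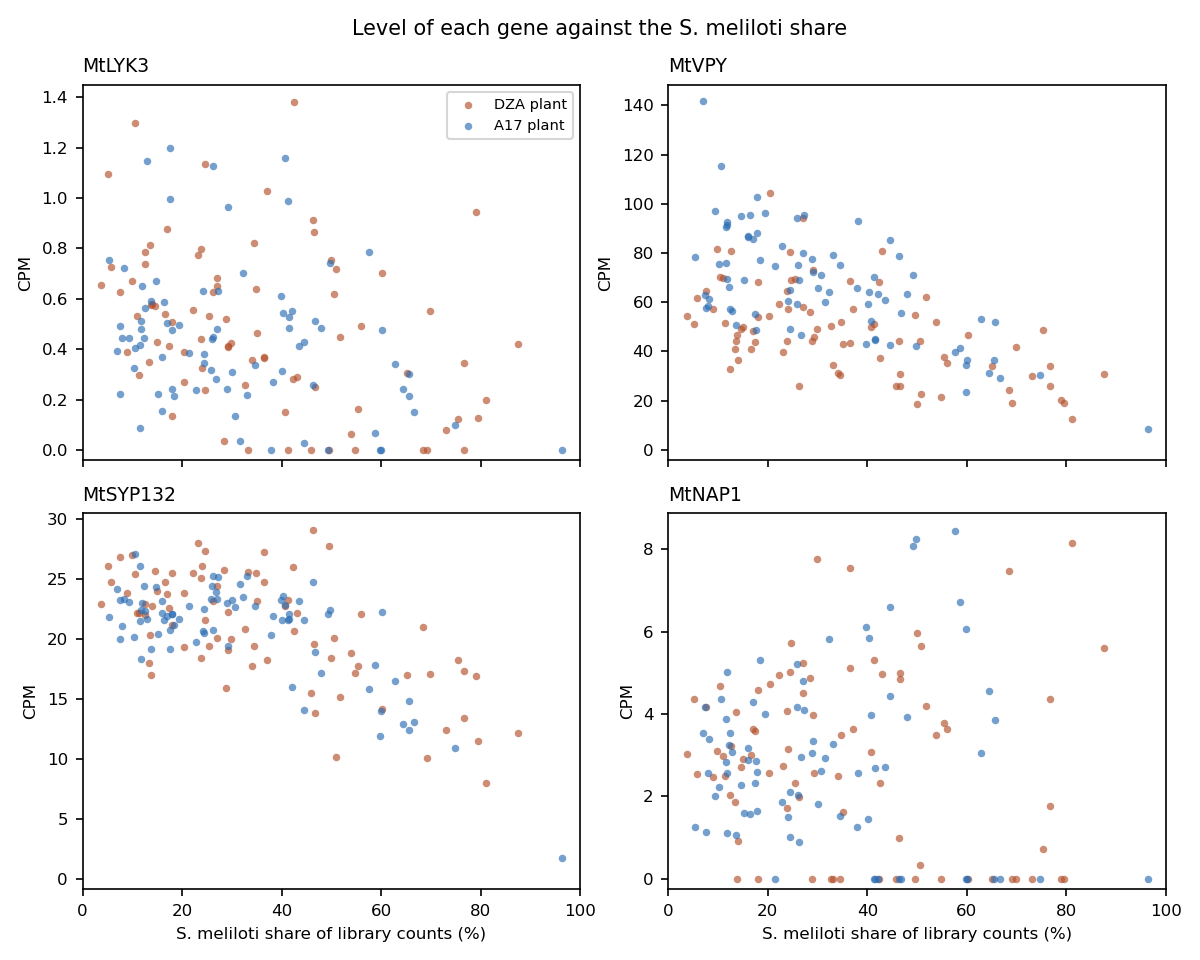
Level of each gene in CPM (y axes, linear) against the share of library counts that came from S. meliloti (x axis, percent); each point is 1 plant, DZA in red-brown and A17 in blue. VPY and SYP132 were lower in the libraries above 60%, at 29.8 and 14.6 CPM on average on DZA and 34.6 and 13.1 CPM on A17, and NAP1 values at 0 became frequent there.

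The 4 genes moved together only in part. Across plants within strains, r between VPY and SYP132 in log2 CPM was 0.65 on DZA and 0.79 on A17 (n = 80 plants each), and 0.39 and 0.60 after removal of a linear trend on the S. meliloti share. VPY and LYK3 gave 0.34 on DZA and 0.33 on A17, and 0.08 and -0.05 after removal of that trend. NAP1 gave 0.16 to 0.44 with the other 3 genes over both hosts, and -0.04 to 0.25 after removal of that trend. These values share library, depth and scaling, and are descriptions without a test.

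The genes with the pattern most like each member were sought over the 40 means of a host and strain, with the host mean removed, among genes with at least 1 CPM on average. For VPY they were MtrunA17_Chr3g0134511 (r = 0.84), MtrunA17_Chr7g0273951 (r = 0.83) and MtrunA17_Chr1g0146151 (r = 0.82), and for SYP132 MtrunA17_Chr4g0005821 (r = 0.87), MtrunA17_Chr6g0487521 (r = 0.87) and MtrunA17_Chr2g0326741 (r = 0.86). LYK3 and NAP1 had lower values of r. For LYK3 the genes were MtrunA17_Chr6g0466411 (r = 0.68), MtrunA17_Chr8g0359091 (r = 0.61) and MtrunA17_Chr3g0121381 (r = 0.60). For NAP1 they were MtrunA17_Chr8g0389531 (r = 0.60), MtrunA17_Chr3g0107041 (r = 0.57) and MtrunA17_Chr4g0075991 (r = 0.56). The sources used here do not annotate these genes. They had the highest r among 20795 genes searched, or 20796 for LYK3, and no member passed the test of strain. Between members, r over the same means was 0.59 for VPY with SYP132. Strain 216 on A17 had the lowest A17 mean of SYP132, at 3.58 log2 CPM (SD 1.85), against 4.16 for the next lowest, strain 199. This group was also the lowest on A17 for VPY, at 5.40 log2 CPM (SD 1.55). How far these values of r rest on that group was not tested.

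The fourth comparison concerned partner quality, which the study measured as shoot biomass of the host. On DZA, counts of the 4 plants of a strain were summed and set against the mean shoot biomass of the strain. The slopes per 0.1 g were positive for all 4 genes and none passed the test: 0.16 for LYK3 (95% interval -0.0003 to 0.32, edgeR adjusted p = 0.21), 0.08 for VPY (-0.01 to 0.17, adjusted p = 0.26), 0.04 for SYP132 (-0.02 to 0.10, adjusted p = 0.37) and 0.14 for NAP1 (-0.005 to 0.28, adjusted p = 0.22). The intervals use a normal approximation, which makes them too narrow for a fit on so few strain sums. The unadjusted p in edgeR were 0.063 for LYK3 and 0.072 for NAP1. The same test called 13.5% of all genes. Biomass on A17 was not used here.

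The 14 other genes of nodule infection, listed for their known roles, were set beside the 4. Between hosts, 7 of 14 passed the test, 4 higher and 3 lower on DZA, with a median log2 difference of -0.04 against 0.08 over all genes. Of all genes tested, 53.2% passed and 26.1% were lower on DZA, so that these counts were close to those of genes in general. Without replicate 2 or without replicate 3 only 1 of the 14 was called lower. Among the signalling genes, DMI1, DMI2 and DMI3, which act in the signalling that follows Nod factor perception, none passed, with log2 differences of 0.15, -0.05 and -0.13 between DZA and A17. Of the transcription factors, NF-YA1 was higher on DZA by 0.21 (edgeR adjusted p = 0.011) and NIN, the regulator of nodule inception, gave -0.03 (adjusted p = 0.75). Of the genes of the thread membrane, FLOT4, a flotillin, was higher on DZA by 0.56 (adjusted p = 6.2e-10), with 18.5 to 147 CPM on DZA (median 48.8) and 12.0 to 98.7 CPM on A17 (median 31.9). SYMREM1, a remorin that interacts with symbiotic receptors, was lower on DZA at -0.26 (adjusted p = 0.018), and CBS1 at -0.52 (adjusted p = 0.023). Each of these calls was made in 10 of 13 settings. CBS1 was, like LYK3, near the limit of detection, with a median of 0.384 CPM on DZA and 0.578 CPM on A17. It was at 0 in 10 of 80 libraries on DZA and 4 of 80 on A17. Among the genes of membrane traffic, the vesicle SNARE VAMP721d was higher on DZA by 0.63 (adjusted p = 2.5e-12) and Rab7A1 by 0.35 (adjusted p = 2.9e-05), while DNF1, a signal peptidase subunit of the nodule, was lower at -0.23 (adjusted p = 0.0078). VAMP721d averaged 20.17 ± 6.96 CPM on DZA and 13.03 ± 3.59 CPM on A17 (SD, n = 80 each).

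Genes of the list were also tested against the S. meliloti share. Of the 14, 10 fell and 1 rose on DZA, where 60% of all genes were called and 28.0% fell, and 10 fell and 1 rose on A17, where 64.7% were called and 30.3% fell. The list had a median slope of -0.14 per 10 points on both hosts, against 0.01 over all genes on either. DMI3 fell most, by 0.32 per 10 points on each host. FLOT2 was the gene that rose, by 0.07, a call made in 6 of 12 settings on DZA and 8 of 12 on A17. With DESeq2's size factors 8 of 14 fell on each host. For strain, FLOT2 and FLOT4 passed on DZA (edgeR adjusted p = 7.8e-06 and 0.0027) and FLOT4 on A17 (adjusted p = 0.022). FLOT4 was called by strain in 10 of 12 settings on DZA and in 6 of 12 on A17, and its highest adjusted p over the settings were 0.10 on DZA and 0.76 on A17. FLOT2 and FLOT4 are members of 1 gene family, and reads may be divided between them. On biomass FLOT4 fell by 0.33 per 0.1 g (edgeR adjusted p = 0.0068) and VAMP721d by 0.10 (adjusted p = 0.042), calls made in 13 and in 8 of 14 settings. None of the 14 passed the host by strain test or the test of a difference between the hosts in the share slope as fitted here. Under alternatives, FLOT4 was called by the host by strain test in 3 of 12 settings (lowest adjusted p = 0.0039, with DESeq2) and SYMREM1 for the slope difference in 1 of 11 (edgeR adjusted p = 0.032, without replicate 3).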

How the data were processed

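RNA from nodules was prepared with a stranded mRNA kit and sequenced on 1 NovaSeq lane by the authors, who demultiplexed reads with bcl2fastq 2.20 and quantified them with Salmon 1.4.0 against the M. truncatula A17 and S. meliloti reference genomes. The values that the authors deposited are estimated counts per gene, which Salmon assigned and tximport summed in R 4.1.0 before deposit. Salmon divides reads among similar transcripts, so counts of near copies are uncertain. Here the counts were rounded to whole numbers and tested, where a M. truncatula gene reached 10 counts in 4 or more libraries, by edgeR 4.0.16 (quasi-likelihood, TMM, Benjamini-Hochberg adjustment) in R 4.3.3, with limma 3.58.1 and DESeq2 1.42.0 as alternatives, as were other size factors, no filter, the S. meliloti share as a covariate and leaving out replicates or libraries. The scripts were tested on simulated data. CPM used no prior count and log2 CPM a prior count of 2.

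Groups came from the host and strain in the labels, with 4 separate plants each. Host was fitted with strain, strain and the S. meliloti share within a host (the share with strain as a term), and shoot biomass, from the study's trait table, on the summed counts of 4 plants per strain. Exact sign-flip tests over 20 strains covered single genes. All tests counted 20 separate strains, apart from 1 alternative biomass fit that joined strains 282 and 283. The study found the genomes of those 2 strains identical, and strains 182 and 89 were told apart by 1 gene here. The p-values measure spread between plants, except in the sign-flip and biomass tests, where they measure spread between strains. The limits for counts of 0 cover counting error only. The genes named are the 4 members, an infection list, a nodule marker list and the 3 genes most like each member. The members and lists were chosen with earlier results of these data known. No sequence was used here.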

Additional observations from a re-analysis of the deposited data

Results flagged for a closer look

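Among the 160 groups of 4 plants (4 genes, 40 combinations of host and strain), 25 held 1 plant far from the other 3, by a gap past Dixon's 95% critical value for the range of the group. Chance alone gives about 1 group in 20. Values are log2 CPM with a prior count of 2.

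For NAP1, 9 groups had 1 plant at 0 counts, all at -4.283 on this scale. On DZA these were plants 3481 (strain 121), 3199 (strain 141), 3205 (strain 204), 3216 (strain 216) and 3258 (strain 283). On A17 they were plants 3309 (strain 144B), 3388 (strain 199), 3435 (strain 25B) and 3187 (strain 746B).

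For VPY, the plants on DZA were 3262 of strain 121 at 5.092, 3340 of strain 25B at 4.353, 3450 of strain 278 at 4.975 and 3314 of strain 748B at 3.673, all lowest of 4, and 3316 of strain 216 at 6.706, highest of 4. On A17 they were 3168 of strain 204 at 4.565 and 3110 of strain 216 at 3.085, both lowest of 4.

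For SYP132, the plant on DZA was 3255 of strain 724B at 4.092. On A17 they were 3298 of strain 182 at 3.822, 3168 of strain 204 at 3.815, 3110 of strain 216 at 0.813 and 3246 of strain 724B at 3.458, all lowest of 4. Plant 3246 was also among the libraries nearer to another strain.

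For LYK3, the plant on DZA was 3318 of strain 746B at -4.283. On A17 they were 3361 of strain 182 at 0.275, highest of 4, and the lowest of 4 in strains 204 (plant 3168, -4.283) and 206 (plant 3174, -3.675). Plant 3168, with 59.9% S. meliloti counts, thus stood apart for LYK3, SYP132 and VPY, though for LYK3 at a count of 0. At the median level of the other A17 libraries, the A17 libraries with LYK3 at 0 would have held 1.68 to 13.3 counts (median 3.32).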

How the results depend on the processing

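Of the values of the 4 genes under alternatives, 362 stayed on their side of the threshold, 13 lost a call and 1 gained one, all slopes on the S. meliloti share. No called value changed sign, but uncalled ones did, such as the host differences of SYP132 (-0.03 to 0.05) and NAP1 (-0.25 to 0.08), the NAP1 share slope on A17 (-0.15 to 0.15) and the VPY slope difference (-0.01 to 0.06). The lower VPY level on DZA passed under all 14 settings run (-0.51 to -0.39). Losses beyond those in the report were LYK3 on DZA without replicate 2 (-0.17) or 4 (-0.16), SYP132 by DESeq2 on DZA (-0.03) and on A17 (-0.01), SYP132 on A17 without replicate 1 (-0.04), and LYK3 on DZA by DESeq2 (-0.14). LYK3 on A17 gained a call with no filter (-0.20). Among the other infection genes, the share slope on A17 changed sign for DNF1 without replicate 1 (0.0027, against -0.0958 without replicate 3) and without libraries over 60% S. meliloti (0.0699), and for NF-YA1 without those libraries (0.0132). The cause was not tested.

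Counts of genes called moved more. The host by strain test called 395 genes, 636 with DESeq2's size factors, 620 with no filter, 193 by limma-voom, 2213 by DESeq2, 256 without libraries over 60% S. meliloti, and 59 to 309 leaving out 1 replicate. Strain called 1437 on DZA, 3379 by DESeq2 and 553 to 1265 leaving out 1 replicate. On A17 it called 569, 935 with DESeq2's size factors, 90 by limma-voom, 3757 by DESeq2, 107 without libraries over 60%, 105 with the share as covariate, and 212 to 546 leaving out 1 replicate. The share slope on DZA called 20544, and 11457 without libraries over 60%. The difference of share slopes called 2777, 548 without libraries over 60%, and 1109 to 2981 leaving out 1 replicate. Biomass called 5048, 2471 with the share as covariate, and 1171 to 5050 leaving out 1 replicate. Leaving out a replicate also leaves fewer libraries.

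No paired analysis was possible because the labels number plants singly, with no number shared between groups, so that plants could not be paired. The hosts were paired by strain only, in the sign-flip tests. LYK3 was limited by depth, with under 10 counts in 32 of 80 DZA and 25 of 80 A17 libraries. Leaving out libraries over 60% S. meliloti, and the test of the difference of share slopes, were chosen after seeing the data.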
